A study of Mus musculus with 10 samples.

Results

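The chromatin modifying and remodelling genes described here were followed in naive CD8+ T cells before and during the first 120 min of stimulation. They are 111 of the 12637 genes with a deposited expression value, and they were chosen by symbol alone: names starting with Kdm, Kmt, Setd, Ezh, Prmt, Kat and a digit, Hdac, Sirt, Brd, Dnmt, Tet and a digit, Smarc, Arid, Chd and a digit, or Ino80. Hdac1, Hdac2, Chd3 and Chd4 were left out by the rule. Not every member is an enzyme. The Smarc, Arid, Brd and Ino80 names also cover subunits and readers without catalytic activity, Kdm6bos is an antisense transcript, Kat2b-ps and Smarca5-ps are processed pseudogenes, and Chd3os is named for lying opposite Chd3. By name the members fall into 10 classes: 18 lysine methyltransferases, 7 arginine methyltransferases, 17 demethylases, 8 acetyltransferases, 14 deacetylases, 7 bromodomain proteins, 6 proteins of DNA methylation and its oxidation, 15 SWI/SNF and ISWI proteins, 13 CHD and INO80 proteins and 6 other ARID proteins.

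DNA in the nucleus is wrapped around histones, and enzymes that add or remove acetyl and methyl groups on histone tails mark genes for use or silencing. Remodelling complexes such as SWI/SNF, ISWI, CHD and INO80 use ATP to slide or evict nucleosomes, and DNA methyltransferases and Tet oxidases act on the DNA itself. Resting T cells carry condensed chromatin that opens when the T cell receptor is engaged, and Ikaros, a zinc finger protein of lymphocytes, binds DNA in complexes with deacetylases and remodellers.

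RNA was sequenced in 10 libraries from spleen CD8+ T cells of female C57Bl/6 mice 6 weeks old, sorted as CD62L high and CD44 low or negative. The mutant group, Ikaros-Zn4-/-, is homozygous for a germline change that removes zinc finger 4, one of the DNA-binding fingers of the protein, and the control group is WT. Cells of both genotypes were used directly (0 min) or stimulated for 30 or 120 min with plate-bound antibodies against CD3 and CD28. Both genotypes were sequenced as pairs of libraries before and after 30 min and as 1 library after 120 min. Whether the pairs came from separate mice or from pools is not given in the sources used here, so the p-values reflect spread that may be technical.

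Levels are given as RPKM, read counts scaled to gene length and library size, and changes as differences of log2(RPKM + 1), which understate the fold change of genes with few RPKM. Depth recovered from the steps of the RPKM values was 4504000 to 13330000 reads per library, and the members took 1.75% to 2.06% of them at 0 and 30 min and 3.06% and 3.19% in the Ikaros-Zn4-/- and WT libraries at 120 min. Ikzf1 had 206 and 226 RPKM unstimulated, 240.0 and 263 RPKM after 30 min and 214 RPKM after 120 min in Ikaros-Zn4-/- cells, against 134 and 148, 156 and 171, and 149.9 RPKM at the same times in WT cells, and since the gene is transcribed in both genotypes its level does not check the deletion of a single finger. All 9 CD8 T cell markers examined, among them Cd8a, Cd3e and Trac, and all 7 naive T cell markers had values, with Cd8a at 456 and 511 RPKM in Ikaros-Zn4-/- and 389.6 and 436 RPKM in WT cells at 0 min. One WT library at 0 min, replicate 1, stood apart in genes of early activation, with Fos at 1259 RPKM against 498 RPKM in the other and Nr4a1 at 221 against 27.97 RPKM. The 7 such genes examined summed to 398 to 583 RPKM in Ikaros-Zn4-/- and 753 to 1845 RPKM in WT cells at 0 min. Fos, at 270 and 175 RPKM in the mutant, Egr1 and Egr2 were higher in both WT libraries. Nr4a1, Cd69 and Myc overlapped, and Tnf was higher in the mutant, at 9.29 and 10.3 against 6.48 and 6.25 RPKM. The part of this in the comparisons with 0 min was not tested. In bulk RNA, fewer cells that express a gene and less RNA per cell cannot be told apart. An RPKM value is a share of the RNA in a library, so a change in total RNA per cell is not seen in it.

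All 111 members passed the filter of a mean of 0.5 RPKM over the libraries, and none was listed at 0 in any library. Their median level was 13.3 RPKM, against 6.22 RPKM for all genes of the table. Of the members, 71 reached a mean of 10 RPKM, while 22 stayed below 5 and 7 below 2 RPKM. Brd2, a bromodomain protein of the BET family that binds acetylated histones, had the highest mean level at 154 RPKM, and the pseudogene Smarca5-ps the lowest at 0.732 RPKM. By class, the median of the mean levels was highest for the bromodomain proteins, at 28.7 RPKM, and lowest for the arginine methyltransferases, at 5.46 RPKM.

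At 120 min more members were higher than lower, whereas among all genes lower ones prevailed. Against 0 min, over both genotypes, 44 members rose and 32 fell at an adjusted p below 0.05 (68.5% called), against 59.7% of all genes tested, of which 19.3% were higher and 40.4% lower. The change was at least 2-fold for 26 of the members that rose and 15 of those that fell. Of the 12203 genes tested 1028 rose and 2730 fell by that much. The median change over the 111 members was 0.12, against -0.32 for all genes. Because a scaling that puts the median of all genes near 0 moves this split, the counts were also made after median-ratio scaling, where 57 members rose and 23 fell, against 28.7% of all genes higher and 30.9% lower under that scaling, and no member called on the deposited scale was called in the opposite direction. All 76 called members moved in the same direction in both genotypes. The tested change averages both genotypes, and a call on it favours a shared sign, so this is no separate support. The summed level of the 9 CD8 T cell markers was lower at the same time, at 1631 RPKM in the Ikaros-Zn4-/- and 1471 RPKM in the WT library at 120 min, against 4370 to 4580 and 3547 to 4038 RPKM at 0 min, and its part in these changes was not tested. Without the WT library at 0 min that stood apart, 42 members rose and 32 fell.

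**Figure D1:**
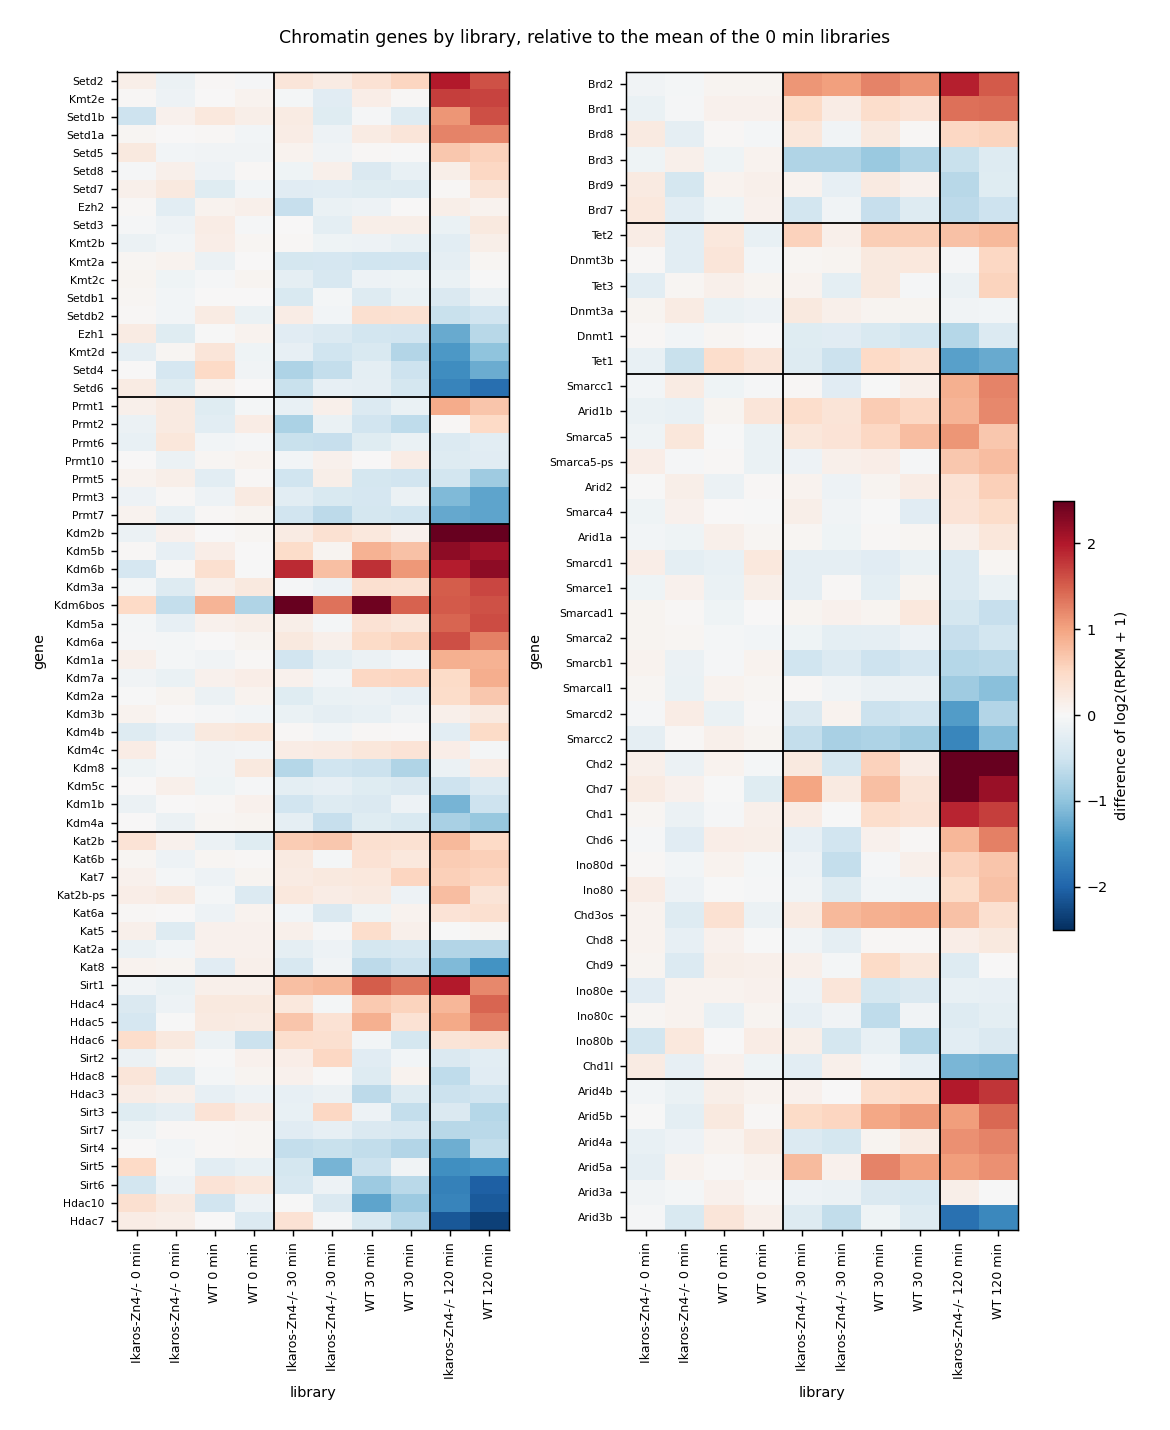
Difference of log2(RPKM + 1) of 110 of the 111 members in each of the 10 libraries from the mean of the 4 libraries at 0 min, with libraries in columns by time and genotype and genes in rows, grouped by class between the horizontal lines and sorted by their change at 120 min; blue is lower, red is higher and colours are capped at the ends of the scale. The classes run, left panel then right, from lysine methyltransferases, arginine methyltransferases, demethylases, acetyltransferases and deacetylases to bromodomain proteins, DNA methylation and oxidation, SWI/SNF and ISWI, CHD and INO80, and other ARID proteins; the 2 libraries at 120 min share most of their pattern, and fewer genes are strongly coloured at 30 min.

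At 30 min the changes were fewer and smaller. Against 0 min 14 members rose and 14 fell (25.2% called), where 19% of all genes were called, 6.51% higher and 12.5% lower. Only Kdm6bos, Kdm6b, Brd2 and Sirt1 rose by at least 2-fold, and no member fell by that much, against 288 and 111 of the 12203 genes tested. The median change of the members was -0.08, against -0.13 for all genes, and after median-ratio scaling 19 rose and 6 fell, against 8.88% of all genes higher and 7.32% lower under that scaling. The 8 lower calls lost under that scaling were those of Dnmt1, Kat2a, Kdm4a, Kdm5c, Prmt7, Sirt6, Sirt7 and Smarcb1. These calls rest on few libraries: without WT replicate 1 at 0 min 13 members were called, and the count was 6 without WT replicate 2 at 0 min or without WT replicate 1 at 30 min, 12 without WT replicate 2 at 30 min, and 13, 14 and 14 without Ikaros-Zn4-/- replicate 1 at 0 min, replicate 2 at 0 min or replicate 1 at 30 min. Brd2, Sirt1, Arid5b, Brd3 and Smarcc2 were called under every alternative tried, and each of the other 23 lost its call under at least 1. Between 30 and 120 min 41 members rose and 26 fell (60.4% called), against 48.2% of all genes, 16.9% higher and 31.3% lower. This count was 45 without the Ikaros-Zn4-/- library at 120 min. The 3 comparisons share libraries, so their overlap is not a result. As a description, 13 members were higher at both times against 0 min and 12 were lower at both. At 120 min only 31 were higher and 20 lower, at 30 min only 1 was higher and 2 were lower, and 32 were called at neither. The matching counts over all genes are not given here.

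**Figure D2:**
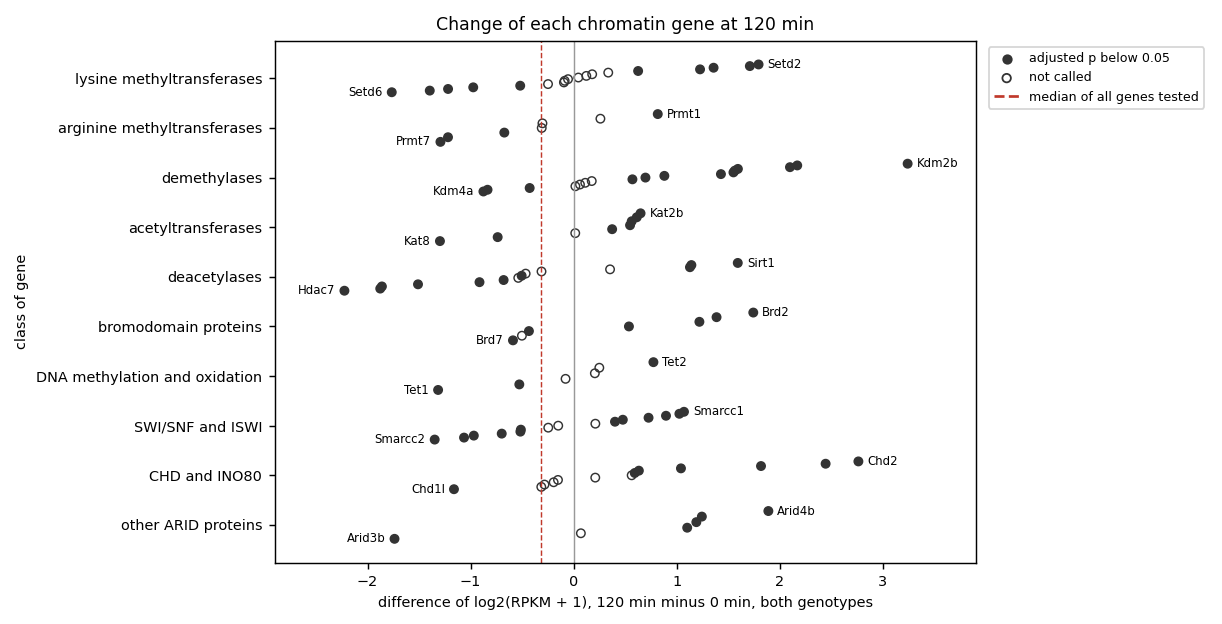
Change of each member at 120 min against 0 min over both genotypes, as the difference of log2(RPKM + 1), with 1 row of points per class; filled points passed an adjusted p of 0.05, open points did not, and the dashed line marks the median of all genes tested at -0.32. The lowest and highest member of each class are named; demethylases, bromodomain, CHD and other ARID proteins lie mostly to the right, and deacetylases mostly to the left.

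Letters upstream of the members were read to show what the 2 directions at 120 min look like at their start sites. RefSeq windows of GRCm38.p6 were at hand for 83 of the 111 members, and only the 250 bases before a start were searched, on both strands and over all windows of a gene. TGGGAA, the core of the sites that Ikaros binds, was found for 2 of 28 members that rose (7.14%) and 10 of 30 that fell (33.3%), with 23.3% of all measured genes holding it. Of the 9 members called between the genotypes, described further on, 7 have a window, and among these TGGGAA was found for Tet1 alone. CACGTG, the E-box of Myc and related factors, was found for 3 of the 28 that rose (10.7%) and 1 of the 30 that fell (3.33%), against 10.3% of all measured genes. TGACGTCA, the cyclic AMP response element, was in none of the 83, against 3.29% of all genes. TGANTCA, the AP-1 element, was held by 7.14% of the members that rose and 13.3% of those that fell, against 4.97% of all genes. For NF-kB only the outer G and C letters of the consensus were required, with any letters between them. A match to this looser pattern need not hold the full consensus. It was held by 64.3% of members that rose and 56.7% of those that fell, against 66.5% of all genes. GGGCGG, the GC box, was held by 75% of those that rose and 63.3% of those that fell, against 64.6% of all genes. None of these shares was tested. A match is a run of letters, not a binding site. The 4 windows printed here overlap no annotated exon and show 2 members that fell, Hdac7 and Kat2a, and 2 that rose, Kdm6a and Setd2, each 5′ to 3′ on the gene's strand with TGGGAA, its reverse complement TTCCCA and CACGTG in capitals. They lie at chr15:97844503-97844752 (Hdac7, minus strand), chr11:100712468-100712717 (Kat2a, minus strand, 2 matches), chrX:18162325-18162574 (Kdm6a, plus strand, E-box) and chr9:110532347-110532596 (Setd2, plus strand, neither the Ikaros core nor the E-box). The other 2 windows of Hdac7 that overlap no annotated exon, which start at 97831768 and 97814864, do not hold this core.
Hdac7: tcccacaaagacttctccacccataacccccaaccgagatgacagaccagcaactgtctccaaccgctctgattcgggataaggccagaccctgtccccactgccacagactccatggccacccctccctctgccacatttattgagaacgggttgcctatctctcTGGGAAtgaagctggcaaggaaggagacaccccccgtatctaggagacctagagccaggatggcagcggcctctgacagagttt
Kat2a: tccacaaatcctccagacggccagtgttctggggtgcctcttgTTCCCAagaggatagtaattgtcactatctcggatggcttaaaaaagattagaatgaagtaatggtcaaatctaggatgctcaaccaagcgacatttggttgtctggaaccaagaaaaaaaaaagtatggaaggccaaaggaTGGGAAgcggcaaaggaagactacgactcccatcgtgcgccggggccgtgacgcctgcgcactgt
Kdm6a: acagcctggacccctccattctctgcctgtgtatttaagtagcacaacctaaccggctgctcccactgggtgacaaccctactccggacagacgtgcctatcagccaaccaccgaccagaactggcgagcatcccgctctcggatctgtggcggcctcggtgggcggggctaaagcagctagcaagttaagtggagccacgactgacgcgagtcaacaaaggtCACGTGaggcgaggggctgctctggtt
Setd2: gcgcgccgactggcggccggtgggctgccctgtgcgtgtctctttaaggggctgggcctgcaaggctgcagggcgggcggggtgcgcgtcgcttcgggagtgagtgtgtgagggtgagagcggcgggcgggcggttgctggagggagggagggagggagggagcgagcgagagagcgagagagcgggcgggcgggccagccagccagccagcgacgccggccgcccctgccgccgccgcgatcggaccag

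Of the 17 demethylase genes 9 rose and 3 fell at 120 min, with a class median of 0.70, beside 19.3% and 40.4% of all genes. At 30 min 4 rose, the antisense Kdm6bos among them, and 3 fell, beside 6.51% and 12.5% of all genes. Kdm2b, which removes methyl groups from lysine 36 of histone H3 and brings a polycomb complex to CpG islands, changed most of all 111 members on the log2(RPKM + 1) scale (chromosome 5, 122870665 to 122989823 in GENCODE M21 on GRCm38). Kdm2b had 3.25 and 4.08 RPKM unstimulated, 4.46 and 5.15 RPKM after 30 min and 40.02 RPKM after 120 min in Ikaros-Zn4-/- cells, against 3.76 and 3.88, 4.70 and 4.08, and 47.7 RPKM at the same times in WT cells. Both libraries at 120 min thus lay far above all 8 earlier ones, and the libraries at 30 min were just above those at 0 min. The change was 3.24 (SE 0.13, adjusted p = 3.22e-05, and 3.56 relative to all genes) at 120 min, while 0.24 (adjusted p = 0.152) at 30 min did not pass the threshold.

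Kdm6b, which removes the repressive methyl marks of lysine 27 of histone H3 and is known as an inducible gene, responded at 30 min already. Kdm6b had 16.3 and 22.8 RPKM unstimulated, 83.6 and 38.3 RPKM after 30 min and 89.2 RPKM after 120 min in Ikaros-Zn4-/- cells, against 29.7 and 22.2, 81.4 and 48.6, and 109 RPKM at the same times in WT cells. All 4 libraries at 30 min exceeded all 4 at 0 min, with wide spread between replicates at 30 min. Its change was 1.38 (SE 0.29, adjusted p = 0.0202, and 1.52 relative to all genes) at 30 min and 2.10 (SE 0.35, adjusted p = 0.00183, and 2.41 relative to all genes) at 120 min, with 0.71 (adjusted p = 0.132) between 30 and 120 min; the 30 min call was lost without WT replicate 2 at 0 min, WT replicate 1 at 30 min or Ikaros-Zn4-/- replicate 1 at 0 min. Kdm6bos lies antisense to Kdm6b and shares 34.0% of its exon bases with other genes. Kdm6bos had 1.70 and 0.264 RPKM unstimulated, 10 and 3.92 RPKM after 30 min and 4.53 RPKM after 120 min in Ikaros-Zn4-/- cells, against 2.44 and 0.134, 9.34 and 4.29, and 4.76 RPKM at the same times in WT cells. The second replicate of each genotype at 0 min rests on 1 read, and reads of the pair cannot be told apart in libraries that do not keep strand. The antisense transcript rose by 1.95 (adjusted p = 0.0326) at 30 min, and its difference of 1.56 (adjusted p = 0.0512) at 120 min missed the threshold. Kdm6a, the X-linked relative of Kdm6b, rose more evenly. Kdm6a had 14.7 and 14.6 RPKM unstimulated, 17.9 and 16.5 RPKM after 30 min and 47.7 RPKM after 120 min in Ikaros-Zn4-/- cells, against 15.1 and 15.8, 21.3 and 22.4, and 37.2 RPKM at the same times in WT cells. Its change was 0.35 (adjusted p = 0.0265) at 30 min and 1.43 (adjusted p = 5.05e-05) at 120 min.

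The demethylases of lysine 4 of histone H3, a mark of active promoters, split. Kdm5b had 5.07 and 4.22 RPKM unstimulated, 7.28 and 5.26 RPKM after 30 min and 27.2 RPKM after 120 min in Ikaros-Zn4-/- cells, against 5.73 and 5.002, 9.87 and 8.93, and 24.6 RPKM at the same times in WT cells. The 2 libraries at 120 min stood above all others. Kdm5b changed by 0.53 (SE 0.12, adjusted p = 0.0297, and 0.66 relative to all genes) at 30 min and 2.17 (SE 0.15, adjusted p = 5.8e-05, and 2.49 relative to all genes) at 120 min, and Kdm5a by 1.55 (adjusted p = 5.86e-05) at 120 min. Kdm5c changed by -0.28 (adjusted p = 0.0479) at 30 min and -0.43 (adjusted p = 0.00695) at 120 min, but both of its calls were lost under median-ratio scaling. Kdm1a, an oxidase that acts on the same residue, changed by 0.88 (adjusted p = 0.000658) and its relative Kdm1b by -0.84 (adjusted p = 0.00124). Kdm3a, a demethylase of lysine 9, changed by 1.59 (adjusted p = 6.06e-05) and Kdm4a, of lysines 9 and 36, by -0.88 (adjusted p = 0.00093). Kdm8 changed by -0.62 (adjusted p = 0.0251) at 30 min against 0 min and by 0.64 (adjusted p = 0.0183) at 120 min against 30 min, and its difference at 120 min against 0 min was 0.02 (adjusted p = 0.942).

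Among the lysine methyltransferases 5 of 18 rose and 5 fell at 120 min, beside 19.3% and 40.4% of all genes. At 30 min Setd2 rose and Kmt2a fell, beside 6.51% and 12.5% of all genes. The class median was -0.01 as deposited and 0.31 relative to all genes. Setd2, which trimethylates lysine 36 of histone H3 along transcribed genes, had the highest change of the class on the same scale. Setd2 had 21.4 and 17.2 RPKM unstimulated, 24.1 and 22.4 RPKM after 30 min and 79.4 RPKM after 120 min in Ikaros-Zn4-/- cells, against 19.5 and 18.9, 25.1 and 28.3, and 60.1 RPKM at the same times in WT cells. It changed by 0.36 (SE 0.10, adjusted p = 0.048, and 0.49 relative to all genes) at 30 min and 1.79 (SE 0.12, adjusted p = 5.23e-05, and 2.11 relative to all genes) at 120 min. Kmt2e, a SET domain protein for which no clear catalytic activity is known, rose by 1.71 (adjusted p = 5.42e-05).

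Methyltransferases of lysine 4 went in both directions. Setd1a and Setd1b, catalytic subunits of the COMPASS complexes, changed by 1.23 (adjusted p = 0.000204) and 1.36 (adjusted p = 0.00165) at 120 min, with 52.3% of the exon bases of Setd1a shared with overlapping genes. Kmt2d, which marks enhancers, was lower. Kmt2d had 73.4 and 89.3 RPKM unstimulated, 74.2 and 60.5 RPKM after 30 min and 31.2 RPKM after 120 min in Ikaros-Zn4-/- cells, against 106 and 79.6, 65.6 and 51.7, and 42.6 RPKM at the same times in WT cells. Its change was -1.22 (SE 0.18, adjusted p = 0.00102, and -0.90 relative to all genes) at 120 min and -0.46 (adjusted p = 0.068) at 30 min, not past the threshold. Kmt2a, the mammalian relative of trithorax, was lower at 30 min only. Kmt2a had 68.1 and 70.8 RPKM unstimulated, 48.7 and 49.2 RPKM after 30 min and 56.6 RPKM after 120 min in Ikaros-Zn4-/- cells, against 59.9 and 66.3, 46.8 and 47.1, and 68.3 RPKM at the same times in WT cells. All 4 libraries at 30 min lay below all others, with a difference of -0.46 (adjusted p = 0.0118) from 0 min. Against 30 min the difference at 120 min was 0.37 (adjusted p = 0.0177), and against 0 min it was -0.09 (adjusted p = 0.464).

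Ezh1 and Ezh2, the alternative catalytic subunits of the polycomb complex that methylates lysine 27, differed in level and in change. Ezh1 had 17.8 and 12.2 RPKM unstimulated, 12.3 and 11.8 RPKM after 30 min and 5.78 RPKM after 120 min in Ikaros-Zn4-/- cells, against 15.2 and 16.3, 10.8 and 10.6, and 9.08 RPKM at the same times in WT cells. Ezh2 had 4.61 and 3.58 RPKM unstimulated, 2.69 and 3.86 RPKM after 30 min and 5.07 RPKM after 120 min in Ikaros-Zn4-/- cells, against 4.85 and 4.97, 4.02 and 4.55, and 4.86 RPKM at the same times in WT cells. Ezh1 thus had the higher level of the pair at each time, and fell at 120 min, while Ezh2 did not pass the threshold. The changes were -0.97 (adjusted p = 0.00135) for Ezh1 and 0.12 (adjusted p = 0.543) for Ezh2. Setd6, which methylates the NF-kB subunit RelA, had the lowest change of the class on that scale. Setd6 had 14.04 and 9.50 RPKM unstimulated, 7.84 and 10.3 RPKM after 30 min and 3.14 RPKM after 120 min in Ikaros-Zn4-/- cells, against 12.8 and 12.2, 10.2 and 8.64, and 2.55 RPKM at the same times in WT cells. Its change was -1.77 (SE 0.18, adjusted p = 0.000217, and -1.45 relative to all genes) at 120 min, and Setd4 changed by -1.40 (adjusted p = 0.00154). Setdb1, a methyltransferase of lysine 9 that silences repeats, did not pass the threshold at any time, with -0.25 (adjusted p = 0.128) at 120 min.

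Of the 7 arginine methyltransferases Prmt1 alone rose at 120 min and 3 fell, beside 19.3% and 40.4% of all genes. At 30 min Prmt7 fell, beside 12.5% of all genes. The class median was -0.31, close to that of all genes. Prmt1, the main enzyme of asymmetric dimethylation, has an identifier in the deposited table that GENCODE M21 does not list, so no position is given. Prmt1 had 38.1 and 41.3 RPKM unstimulated, 30.7 and 38.4 RPKM after 30 min and 68.05 RPKM after 120 min in Ikaros-Zn4-/- cells, against 28.4 and 33.8, 27.3 and 31.4, and 57.4 RPKM at the same times in WT cells. Both libraries at 120 min were above the earlier ones. Prmt1 changed by 0.82 (SE 0.14, adjusted p = 0.00193, and 1.13 relative to all genes). Prmt7, which adds a single methyl group, changed by -0.52 (adjusted p = 0.0206) at 30 min, a call lost under median-ratio scaling, and -1.29 (adjusted p = 0.000204) at 120 min, Prmt3, known for methylating a ribosomal protein, by -1.22 (adjusted p = 0.000419) at 120 min, and Prmt5, the main enzyme of symmetric dimethylation, by -0.67 (adjusted p = 0.017), a call lost under median-ratio scaling.

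Acetyltransferases rose in 5 of 8 cases at 120 min and fell in 2, beside 19.3% and 40.4% of all genes. The pseudogene Kat2b-ps, placed in this class by name, is 1 of the 5. The class median was 0.46, with no change past 2-fold among those that rose. Kat2a and Kat2b, alternative enzymes of the SAGA and ATAC coactivator complexes, moved apart. Kat2b had 11.7 and 9.67 RPKM unstimulated, 14.4 and 14.8 RPKM after 30 min and 16.4 RPKM after 120 min in Ikaros-Zn4-/- cells, against 8.02 and 7.05, 12.1 and 11.9, and 13 RPKM at the same times in WT cells. Kat2a had 28.6 and 30.5 RPKM unstimulated, 27.1 and 29.3 RPKM after 30 min and 18.7 RPKM after 120 min in Ikaros-Zn4-/- cells, against 34.7 and 34.5, 23.2 and 24.1, and 18.8 RPKM at the same times in WT cells. Kat2b was higher at 30 min than at 0 min in every library of each genotype, whereas Kat2a was lower in WT cells and overlapped in Ikaros-Zn4-/- cells. Kat2b changed by 0.52 (adjusted p = 0.0145) at 30 min and 0.65 (adjusted p = 0.00263) at 120 min, and Kat2a by -0.30 (adjusted p = 0.0401) and -0.74 (adjusted p = 0.000576), the call at 30 min being lost under median-ratio scaling. Kat8, which acetylates lysine 16 of histone H4, fell by 1.30 on the log2 scale at 120 min (adjusted p = 0.000385). Kat6a, Kat6b and Kat7, of the MYST family, rose by 0.37 (adjusted p = 0.0378), 0.61 (adjusted p = 0.00641) and 0.56 (adjusted p = 0.00679).

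Of the 14 deacetylases 3 rose and 7 fell at 120 min, beside 19.3% and 40.4% of all genes. The class median was -0.52, against -0.32 for all genes. Hdac7, a class IIa deacetylase abundant in thymocytes and T cells that leaves the nucleus after receptor signalling, had the lowest change of all members on the log2(RPKM + 1) scale, which shrinks the changes of genes at low levels such as Tet1. Hdac7 had 124 and 121 RPKM unstimulated, 140.5 and 108 RPKM after 30 min and 24.4 RPKM after 120 min in Ikaros-Zn4-/- cells, against 110.1 and 86.8, 83.6 and 68.5, and 21.01 RPKM at the same times in WT cells. Each 120 min library was below all 8 earlier ones. At 30 min the WT libraries lay below those of WT at 0 min, and the Ikaros-Zn4-/- libraries overlapped with theirs. The change was -2.22 (SE 0.16, adjusted p = 6.62e-05, and -1.91 relative to all genes) at 120 min and -0.18 (adjusted p = 0.366) at 30 min. Hdac4 and Hdac5, the other class IIa members measured, rose instead, by 1.14 (adjusted p = 0.000414) and 1.13 (adjusted p = 0.00246); Hdac4 shares 22.4% of its exon bases with another gene. Hdac10, a class IIb enzyme that acts on polyamines, changed by -0.65 (adjusted p = 0.0273) at 30 min and -1.88 (adjusted p = 0.000165) at 120 min. Hdac3, the catalytic subunit of the nuclear receptor corepressor complexes, changed by -0.51 (adjusted p = 0.00952), a call lost under median-ratio scaling.

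Of the 7 sirtuins, NAD-dependent deacylases, 1 rose and 4 fell at 120 min, beside 19.3% and 40.4% of all genes. Sirt1, nuclear and active on histones and transcription factors, rose early. Sirt1 had 6.08 and 5.71 RPKM unstimulated, 11.6 and 12.3 RPKM after 30 min and 28.5 RPKM after 120 min in Ikaros-Zn4-/- cells, against 7.20 and 7.22, 20.5 and 17.7, and 16.4 RPKM at the same times in WT cells. All libraries at 30 and 120 min lay above all at 0 min, and the 120 min libraries of the 2 genotypes lie on either side of the WT libraries at 30 min. Sirt1 changed by 1.10 (SE 0.087, adjusted p = 0.00114, and 1.23 relative to all genes) at 30 min and 1.59 (SE 0.11, adjusted p = 5.07e-05, and 1.91 relative to all genes) at 120 min. Its change between 30 and 120 min, 0.49 (adjusted p = 0.00846), rested on the Ikaros-Zn4-/- library at 120 min, without which it was -0.21 (adjusted p = 0.359). Sirt6, also nuclear, fell. Sirt6 had 5.60 and 7.41 RPKM unstimulated, 5.93 and 7.35 RPKM after 30 min and 1.83 RPKM after 120 min in Ikaros-Zn4-/- cells, against 10.5 and 9.90, 3.87 and 4.75, and 1.23 RPKM at the same times in WT cells. The fall was clear at 120 min, at -1.86 (SE 0.16, adjusted p = 0.000105, and -1.54 relative to all genes), while at 30 min the WT libraries were lower than at 0 min and the Ikaros-Zn4-/- libraries overlapped with theirs. Sirt4 and Sirt5, of mitochondria, changed by -0.91 (adjusted p = 0.00127) and -1.51 (adjusted p = 0.00241) at 120 min, and Sirt7, of the nucleolus, by -0.68 (adjusted p = 0.00081).

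**Figure D3:**
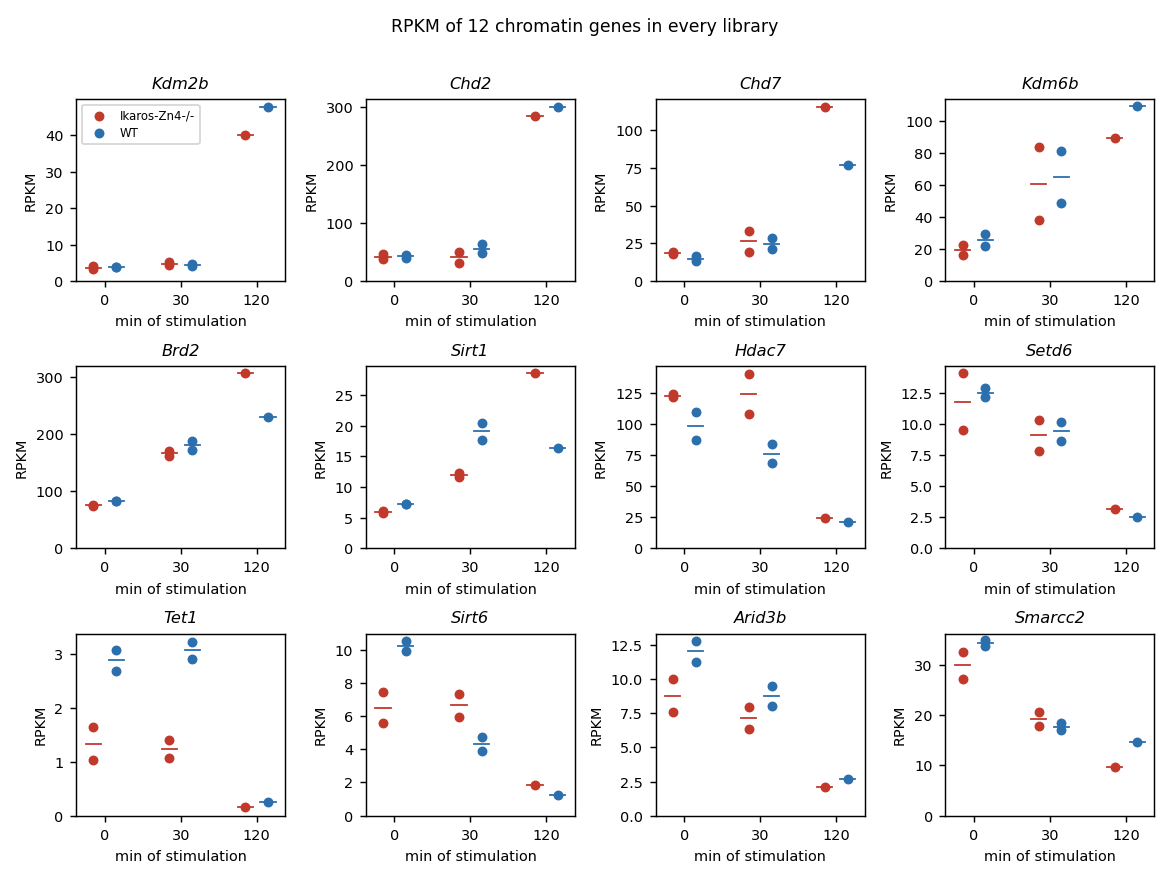
RPKM of 12 members in every library against time of stimulation in min (categories, not to scale), Ikaros-Zn4-/- libraries to the left of WT libraries; points are libraries and lines their group mean, with 1 library per genotype at 120 min. Kdm2b, Chd2 and Chd7 reach 40.0 to 301 RPKM at 120 min, Kdm6b, Brd2 and Sirt1 are up at 30 min, and the other 6 genes are lowest at 120 min.

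Readers of histone acetylation moved within 30 min. Of the 7 bromodomain proteins 4 rose and 2 fell at 120 min, beside 19.3% and 40.4% of all genes. At 30 min 2 rose and 1 fell, beside 6.51% and 12.5% of all genes. Brd2 of the BET family is abundant at all times. Brd2 had 73.98 and 76.1 RPKM unstimulated, 171 and 161 RPKM after 30 min and 306 RPKM after 120 min in Ikaros-Zn4-/- cells, against 82.2 and 82.2, 188 and 172, and 229.5 RPKM at the same times in WT cells. The 3 times did not overlap in either genotype. Brd2 changed by 1.13 (SE 0.084, adjusted p = 0.00102, and 1.26 relative to all genes) at 30 min and 1.74 (SE 0.10, adjusted p = 4.01e-05, and 2.06 relative to all genes) at 120 min, and it was called within each genotype at 30 min. Its relative Brd3 went the other way. Brd3 had 6.80 and 8.11 RPKM unstimulated, 3.98 and 3.99 RPKM after 30 min and 4.71 RPKM after 120 min in Ikaros-Zn4-/- cells, against 6.80 and 7.84, 3.37 and 3.98, and 5.71 RPKM at the same times in WT cells. All libraries at 30 min lay below those at 0 min, with changes of -0.79 (SE 0.11, adjusted p = 0.00577, and -0.66 relative to all genes) at 30 min and -0.43 (adjusted p = 0.0245) at 120 min, the later call being lost under median-ratio scaling. Brd1, a scaffold of acetyltransferase complexes, rose by 0.36 (adjusted p = 0.041) at 30 min and 1.39 (adjusted p = 0.000104) at 120 min.

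Tet1 and Tet2, oxidases that start the removal of methyl groups from cytosine, diverged. Tet1 had 1.65 and 1.03 RPKM unstimulated, 1.41 and 1.07 RPKM after 30 min and 0.163 RPKM after 120 min in Ikaros-Zn4-/- cells, against 3.08 and 2.69, 3.23 and 2.91, and 0.246 RPKM at the same times in WT cells. Tet2 had 9.41 and 6.63 RPKM unstimulated, 12.8 and 9.03 RPKM after 30 min and 14.2 RPKM after 120 min in Ikaros-Zn4-/- cells, against 10.01 and 7.06, 12.9 and 12.99, and 15.1 RPKM at the same times in WT cells. Tet1 was lowest at 120 min, where its values rest on about 23.1 recovered reads in the Ikaros-Zn4-/- and 39.9 in the WT library, and it was lower in mutant cells before. The change at 120 min was -1.32 (SE 0.18, adjusted p = 0.000706) for Tet1 and 0.77 (SE 0.20, adjusted p = 0.0141, and 1.09 relative to all genes) for Tet2, the call of Tet2 being lost without either library at 120 min. Dnmt1, which copies methylation after replication, changed by -0.35 (adjusted p = 0.0229) at 30 min and -0.53 (adjusted p = 0.00244) at 120 min, and both calls were lost under median-ratio scaling. The de novo enzymes Dnmt3a and Dnmt3b and the oxidase Tet3 did not pass the threshold, with -0.08 (adjusted p = 0.545), 0.25 (adjusted p = 0.256) and 0.21 (adjusted p = 0.283) at 120 min.

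The class taken by name as SWI/SNF and ISWI was split evenly, with 6 of 15 higher and 6 lower at 120 min and 2 each at 30 min. The pseudogene Smarca5-ps counts among the higher at 120 min. Smarcad1 and Smarcal1, placed here by name alone, count among the lower. Of all genes 19.3% were higher and 40.4% lower at 120 min, and 6.51% and 12.5% at 30 min. The class median was -0.15 as deposited and 0.17 relative to all genes. Smarcc1 and Smarcc2 are alternative scaffold subunits of the SWI/SNF complex. Smarcc1 had 7.59 and 9.46 RPKM unstimulated, 8.17 and 6.44 RPKM after 30 min and 15.8 RPKM after 120 min in Ikaros-Zn4-/- cells, against 7.40 and 7.82, 7.98 and 8.87, and 20.4 RPKM at the same times in WT cells. Smarcc2 had 27.1 and 32.6 RPKM unstimulated, 20.7 and 17.8 RPKM after 30 min and 9.68 RPKM after 120 min in Ikaros-Zn4-/- cells, against 34.96 and 33.7, 18.4 and 17.1, and 14.7 RPKM at the same times in WT cells. Smarcc2 was lower in all libraries at 30 min than at 0 min and lower again at 120 min, and Smarcc1 was called at 120 min only. Smarcc2 changed by -0.76 (SE 0.10, adjusted p = 0.00498, and -0.63 relative to all genes) at 30 min and -1.35 (SE 0.12, adjusted p = 0.000122, and -1.03 relative to all genes) at 120 min, and Smarcc1 rose by 1.07 (adjusted p = 0.000611) at 120 min, with a difference of -0.03 (adjusted p = 0.852) at 30 min. Of the alternative ATPases, Smarca4 changed by 0.40 (adjusted p = 0.0336) and Smarca2 by -0.52 (adjusted p = 0.00322) at 120 min, and neither call held in full: that of Smarca4 was lost under quantile normalization and that of Smarca2 under median-ratio scaling. Smarcb1, a core subunit, changed by -0.45 (adjusted p = 0.0285) at 30 min and -0.70 (adjusted p = 0.00273) at 120 min, the earlier call being lost under median-ratio scaling. Arid1b, an alternative DNA-binding subunit, changed by 0.48 (adjusted p = 0.0165) at 30 min and 1.03 (adjusted p = 0.000281) at 120 min, while its abundant partner Arid1a, at 76.3 RPKM on average, had a difference of 0.21 (adjusted p = 0.11) that did not pass the threshold. Smarcal1, a helicase that anneals DNA strands, changed by -0.97 (adjusted p = 0.000493) at 120 min. Smarca5, the ATPase of the ISWI complexes, changed by 0.48 (adjusted p = 0.0425) at 30 min and 0.90 (adjusted p = 0.00228) at 120 min.

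None of the 13 CHD and INO80 members was called at 30 min, beside 19% of all genes. At 120 min 6 rose and 1 fell, beside 19.3% and 40.4% of all genes, with a class median of 0.56. Chd2 and Chd7 followed Kdm2b in the order of changes. Chd2 had 46.03 and 37.9 RPKM unstimulated, 50.6 and 31.1 RPKM after 30 min and 286 RPKM after 120 min in Ikaros-Zn4-/- cells, against 45.4 and 40.6, 63.6 and 48.5, and 301 RPKM at the same times in WT cells. Chd7 had 19.2 and 17.9 RPKM unstimulated, 33.5 and 19.4 RPKM after 30 min and 116 RPKM after 120 min in Ikaros-Zn4-/- cells, against 16.5 and 13.1, 28.7 and 20.9, and 77.1 RPKM at the same times in WT cells. Both libraries at 120 min stood above all earlier ones for each gene, and Chd7 at 30 min was above its values at 0 min with a change of 0.57 (adjusted p = 0.0786). Their changes at 120 min were 2.76 (SE 0.22, adjusted p = 7.97e-05, and 3.08 relative to all genes) for Chd2 and 2.44 (SE 0.23, adjusted p = 0.000158, and 2.76 relative to all genes) for Chd7, with 19.3% of the exon bases of Chd2 shared with other genes. Chd1, a remodeller that reads methylated lysine 4 in human cells, changed by 1.82 (adjusted p = 4.71e-05), Chd6 by 1.04 (adjusted p = 0.000471) and Ino80, the ATPase of its complex, by 0.59 (adjusted p = 0.00622). Chd1l, a remodeller activated by poly(ADP-ribose), changed by -1.16 (adjusted p = 0.00105).

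Other ARID proteins rose in 4 of 6 cases at 120 min and fell in 1, beside 19.3% and 40.4% of all genes, with the highest class median, 1.15. Arid5a, which stabilises cytokine transcripts by binding their RNA, was up at 30 min. Arid5a had 19.1 and 23.9 RPKM unstimulated, 39.6 and 24.3 RPKM after 30 min and 47.5 RPKM after 120 min in Ikaros-Zn4-/- cells, against 22.9 and 23.9, 54.1 and 46.4, and 50.8 RPKM at the same times in WT cells. All libraries at 30 min exceeded those at 0 min, 1 of the Ikaros-Zn4-/- libraries only just. Arid5b, a partner of the demethylase Phf2, behaved more evenly. Arid5b had 8.13 and 6.72 RPKM unstimulated, 11.8 and 12.3 RPKM after 30 min and 17.9 RPKM after 120 min in Ikaros-Zn4-/- cells, against 9.80 and 8.34, 17.02 and 18.3, and 23.9 RPKM at the same times in WT cells. Changes at 30 min were 0.79 (SE 0.16, adjusted p = 0.0205, and 0.93 relative to all genes) for Arid5a and 0.77 (SE 0.10, adjusted p = 0.00504, and 0.90 relative to all genes) for Arid5b, and at 120 min 1.10 (adjusted p = 0.00279) and 1.24 (adjusted p = 0.000173). Arid4a and Arid4b, subunits of the Sin3 deacetylase complex, changed by 1.19 (adjusted p = 0.000105) and 1.89 (adjusted p = 3.7e-05) at 120 min. Arid3b fell by 1.74 on the log2 scale (adjusted p = 0.000135).

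Ratios of related genes within a library do not depend on the scaling between libraries. Smarcc1 over Smarcc2 was 0.280 and 0.290 at 0 min, 0.395 and 0.362 at 30 min and 1.63 at 120 min in Ikaros-Zn4-/- cells, against 0.212 and 0.232, 0.435 and 0.520, and 1.39 in WT cells. The more abundant scaffold changed places in both libraries at 120 min. Setd1b over Kmt2d was 0.156 and 0.204 at 0 min, 0.265 and 0.222 at 30 min and 1.19 at 120 min in Ikaros-Zn4-/- cells, against 0.194 and 0.236, 0.253 and 0.257, and 1.26 in WT cells. Hdac4 over Hdac7 was 0.0317 and 0.0393 at 0 min, 0.0469 and 0.0470 at 30 min and 0.418 at 120 min in Ikaros-Zn4-/- cells, against 0.0586 and 0.0747, 0.107 and 0.121, and 0.776 in WT cells. This ratio was lower in the mutant at each time. Tet2 over Tet1 was 5.72 and 6.46 at 0 min, 9.06 and 8.42 at 30 min and 87.7 at 120 min in Ikaros-Zn4-/- cells, against 3.25 and 2.63, 4.01 and 4.47, and 61.3 in WT cells, and a ratio over so few reads of Tet1 at 120 min is imprecise. Not every pair computed was highest at 120 min. Kdm6b over Kdm6a was 4.66 and 2.33 at 30 min and 1.87 at 120 min in Ikaros-Zn4-/- cells. Brd2 over Brd3 was 55.7 and 43.3 at 30 min and 40.2 at 120 min in WT cells. A ratio shows unequal change of the pair and does not tell which of both changed.

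**Figure D4:**
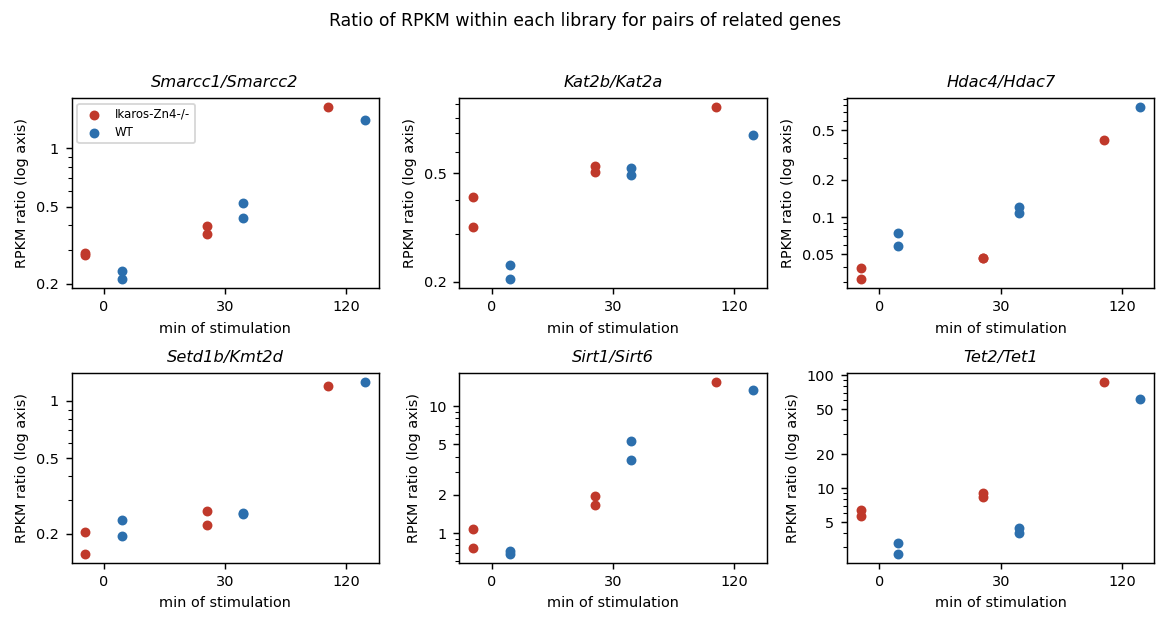
Ratio of the RPKM values of 6 pairs of related members within each library, on log axes, against time of stimulation in min (categories, not to scale), Ikaros-Zn4-/- libraries to the left of WT libraries; each point is 1 library. The ratio is highest at 120 min in both genotypes for each of the 6 pairs, with Smarcc1/Smarcc2 at 1.63 and 1.39 and Sirt1/Sirt6 at 15.6 and 13.3 in Ikaros-Zn4-/- and WT cells. The 6 pairs were picked from more that were computed, and not all of the others are highest at 120 min.

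Between the genotypes few members differed. Over all times, with time in the model, 2 members were higher and 7 lower in Ikaros-Zn4-/- than in WT cells (8.11% called), against 9.42% of all genes, 6.19% higher and 3.24% lower. The median difference was -0.07 for the members and 0.01 for all genes, and after median-ratio scaling 1 member was higher and 9 lower, against 6.09% of all genes higher and 4.09% lower under that scaling. Hdac10 had the largest difference on the log2(RPKM + 1) scale. Hdac10 had 19.5 and 17.1 RPKM unstimulated, 14.4 and 11.1 RPKM after 30 min and 3.96 RPKM after 120 min in Ikaros-Zn4-/- cells, against 10.2 and 13.2, 5.23 and 7.27, and 2.62 RPKM at the same times in WT cells. Mutant libraries were above WT libraries at each time, with a difference of 0.71 (SE 0.13, adjusted p = 0.0103). Kat2b, whose values are given above, was the other higher member, at 0.35 (SE 0.084, adjusted p = 0.0326), a call lost under median-ratio scaling. Tet1 had the largest difference among the lower members, -0.66 (SE 0.15, adjusted p = 0.0255). It lay at 1.03 to 1.65 RPKM in mutant and 2.69 to 3.23 RPKM in WT cells at 0 and 30 min.

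The other lower members were 2 ARID proteins, 2 demethylases, a deacetylase and a remodeller. Hdac4 had 3.93 and 4.77 RPKM unstimulated, 6.59 and 5.07 RPKM after 30 min and 10.2 RPKM after 120 min in Ikaros-Zn4-/- cells, against 6.46 and 6.49, 8.99 and 8.31, and 16.3 RPKM at the same times in WT cells. The mutant was lower at each time, with a difference of -0.52 (SE 0.093, adjusted p = 0.00744). Kdm7a had 10.99 and 10.3 RPKM unstimulated, 12.7 and 11.1 RPKM after 30 min and 16.7 RPKM after 120 min in Ikaros-Zn4-/- cells, against 12.7 and 13.2, 17.3 and 17.6, and 23.1 RPKM at the same times in WT cells. For this demethylase of lysines 9 and 27 the difference was -0.40 (SE 0.081, adjusted p = 0.0151). Chd6 had 8.69 and 7.19 RPKM unstimulated, 7.66 and 6.16 RPKM after 30 min and 16.6 RPKM after 120 min in Ikaros-Zn4-/- cells, against 10.2 and 10.1, 9.68 and 9.21, and 22.7 RPKM at the same times in WT cells. Its difference was -0.38 (SE 0.088, adjusted p = 0.0279). Arid5b differed by -0.39 (adjusted p = 0.0276), Kdm3a by -0.37 (adjusted p = 0.0298) and Arid4a by -0.35 (adjusted p = 0.038). Kdm3a had 35.2 and 29.01 RPKM unstimulated, 35.5 and 33.5 RPKM after 30 min and 107 RPKM after 120 min in Ikaros-Zn4-/- cells, against 40.2 and 43.3, 48.6 and 47.9, and 118 RPKM at the same times in WT cells. Arid4a had 23.1 and 24.04 RPKM unstimulated, 20.7 and 19.2 RPKM after 30 min and 59.5 RPKM after 120 min in Ikaros-Zn4-/- cells, against 28.1 and 30.7, 27.8 and 30.4, and 63.3 RPKM at the same times in WT cells. Each of these 7 was lower in the mutant at 0, 30 and 120 min, by group means or, at 120 min, by the only library. The count of 9 was 4 without either WT library at 0 min, 2 and 3 without WT replicate 1 or 2 at 30 min, and 3 without Ikaros-Zn4-/- replicate 2 at 0 or at 30 min. Hdac10 and Hdac4 were called under every alternative tried.

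**Figure D5:**
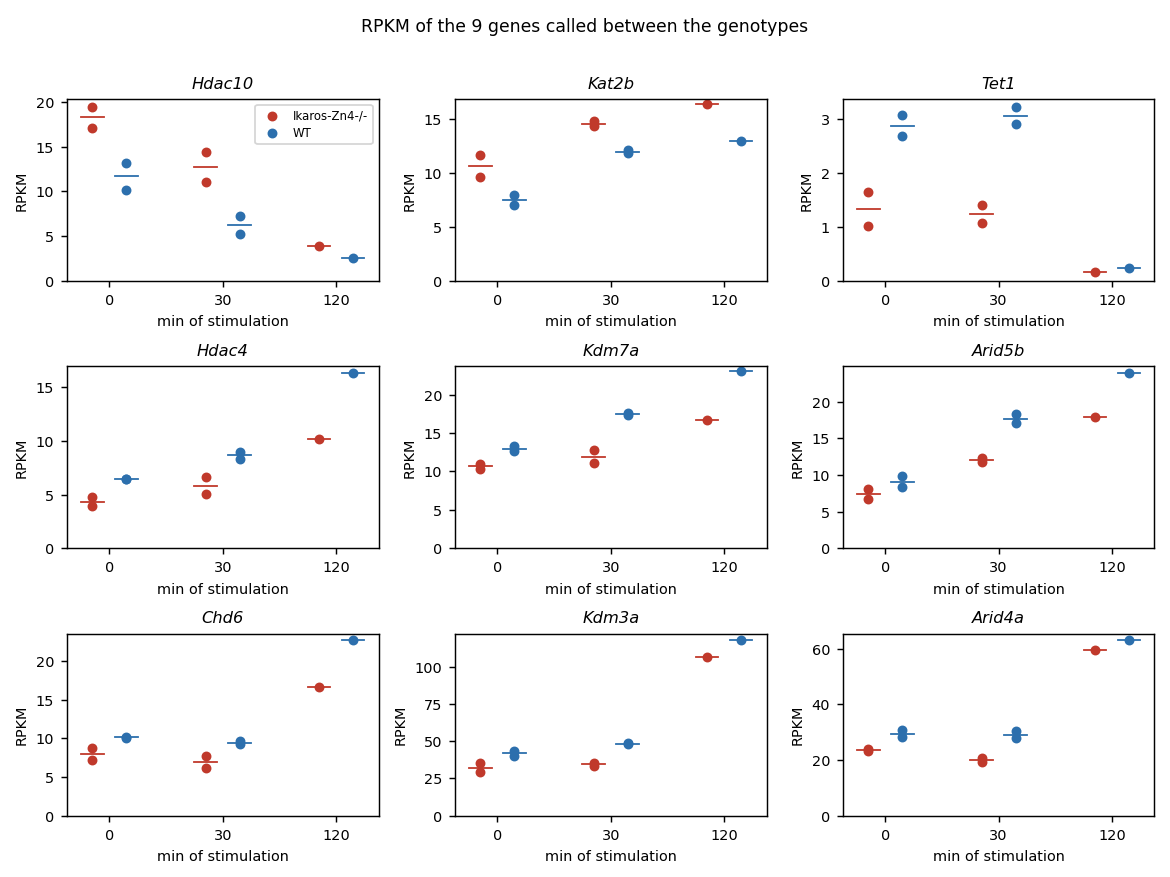
RPKM of the 9 members called between the genotypes over all times, in every library against time of stimulation in min (categories, not to scale), Ikaros-Zn4-/- libraries to the left of WT libraries; points are libraries and lines their group mean, with 1 library per genotype at 120 min. Hdac10 and Kat2b are higher and the other 7 lower in Ikaros-Zn4-/- cells at each time.

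At single times limma on the deposited scale called no member between the genotypes, which does not show that the levels are alike. At 0 min limma called 0 members, against 2.47% of all genes, 1.92% higher and 0.557% lower. By limma 11 of 111 members and 1701 of 12203 genes had an unadjusted p below 0.05, and voom on recovered reads called 3 members. At 30 min limma called 0, against 2.61% of all genes, 2.01% higher and 0.606% lower. Here 18 of 111 members and 2100 of 12203 genes had an unadjusted p below 0.05 by limma, and voom called 5 members. Median-ratio scaling, no filter or a filter at 2 RPKM each gave 1 called member at 30 min, and quantile normalization 2. After median-ratio scaling 2.07% of all genes were higher and 0.876% lower at 30 min. The shares of all genes called under voom, the other filters and quantile normalization are not given here. At 120 min the genotypes have 1 library each, so there is no test; the median difference of the members was -0.09, against 0 for all genes. Some markers of other cells differed between the genotypes, and others overlapped. The 3 of 8 B cell markers that had values summed to 29.8 to 49.4 RPKM in Ikaros-Zn4-/- and 9.61 to 16.1 RPKM in WT cells, with Cd74 at 20.3 to 41.4 and 0.793 to 3.04 RPKM, and Cd79b at 1.75 to 9.75 and 4.93 to 14.8 RPKM. The 3 of 7 natural killer markers that had values summed to 20.4 to 111 RPKM in Ikaros-Zn4-/- and 12.9 to 73.0 RPKM in WT cells. Of these, Eomes lay at 10.6 to 28.6 and 1.90 to 9.39 RPKM, and Gzma was at 0 in 2 of the WT libraries. Klrd1, the highest of the 3 at 0 min, overlapped there, at 57.73 and 76.44 against 43.4 and 66.14 RPKM. It also overlapped at 30 min, and at 120 min it was lower in the mutant, at 7.634 against 11.01 RPKM. The 4 of 9 myeloid markers summed to 31.6 to 94.5 RPKM in Ikaros-Zn4-/- and 28.8 to 52.7 RPKM in WT cells. The part of other cells in the differences of the members was not tested.

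The response to stimulation did not pass a test of difference between genotypes for any member. Within Ikaros-Zn4-/- cells 2 members rose at 30 min, Brd2 and Sirt1 (1.80% called, against 2.74% of all genes, 1.68% higher and 1.06% lower). Within WT cells 5 rose and 4 fell (8.11% called, against 6.03% of all genes, 3.21% higher and 2.82% lower). The 5 were Brd2, Sirt1, Arid5a, Arid5b and Kat2b, and the 4 were Sirt6, Smarcc2, Brd3 and Kat2a. The count in Ikaros-Zn4-/- cells was 0 without either library at 0 min or replicate 1 at 30 min and 1 without replicate 2 of either genotype at 30 min, and that in WT cells was 1 without replicate 1 at 0 min and 0 without any other of the 4 WT libraries. The difference between these responses was tested directly: limma called 0 members and 0% of all genes, and voom also called 0 members. By limma 6 of 111 members and 656 of 12203 genes had an unadjusted p below 0.05. Sirt6 had the smallest by limma, an unadjusted p = 0.00357, with a difference of 1.11 (SE 0.26, adjusted p = 0.876). For the response at 120 min limma again called 0 members and 0% of all genes. An unadjusted p below 0.05 by limma was found for 5 of 111 members and 661 of 12203 genes. Sirt1 had the smallest by limma, an unadjusted p = 0.00208, with a difference of 1.02 (SE 0.21, adjusted p = 0.829), and Brd2 followed the same direction at 0.54 (SE 0.21, adjusted p = 0.892).

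Partners of the members in their complexes were counted from lists by name. At 120 min, where 19.3% of all genes were higher and 40.4% lower, their directions were mixed. Among other histone acetyltransferases and their partners 15 of 28 rose and 5 fell, with a median of 0.49 against -0.32 for all genes. The coactivators Crebbp and Ep300 led this list. Crebbp had 15.2 and 18.6 RPKM unstimulated, 24.3 and 17.2 RPKM after 30 min and 69.04 RPKM after 120 min in Ikaros-Zn4-/- cells, against 19.8 and 20.1, 26.2 and 24.7, and 80.7 RPKM at the same times in WT cells. Ep300 had 25.4 and 24.3 RPKM unstimulated, 26.96 and 23.97 RPKM after 30 min and 71.5 RPKM after 120 min in Ikaros-Zn4-/- cells, against 24.9 and 26.99, 26.8 and 26.9, and 71 RPKM at the same times in WT cells. Both were highest at 120 min, with changes of 1.97 (SE 0.16, adjusted p = 8.45e-05, and 2.29 relative to all genes) and 1.45 (SE 0.10, adjusted p = 5.63e-05, and 1.77 relative to all genes). Of 27 polycomb partners 8 rose and 7 fell, led by Rybp, a subunit of non-canonical polycomb complexes, at 2.002 (adjusted p = 0.000106) and Jarid2, which guides the methylating complex, at 1.85 (adjusted p = 0.000117).

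In the other lists the directions were mixed. Of 16 other histone methyltransferases 5 rose and 6 fell, with Suv420h2, which methylates lysine 20 of histone H4, at -2.02 (adjusted p = 0.000104). Of 13 COMPASS partners 3 rose and 4 fell, with Men1 at 1.16 (adjusted p = 0.000932) and Ash2l at -1.32 (adjusted p = 0.000325). Of 18 corepressors of deacetylases 7 rose and 3 fell, with Sap130 at 1.17 (adjusted p = 0.000151) and the scaffold Sin3a at 1.002 (adjusted p = 0.000228). Of 12 accessory subunits of SWI/SNF 5 rose and 4 fell, with Bcl7a at -1.45 (adjusted p = 0.000105), and of 25 partners of ISWI, INO80 and SWR1 8 rose and 8 fell, with Rsf1 at 1.62 (adjusted p = 4.36e-05) and Dmap1 at -1.63 (adjusted p = 0.00025). Of 10 readers and partners of DNA methylation 2 rose and 2 fell, with Uhrf1, which guides Dnmt1 to replicated DNA, at 1.27 (adjusted p = 0.0092). Of 4 other demethylases measured 1 rose, Jmjd1c at 1.25 (adjusted p = 0.00104), and 1 fell, Phf2 at -0.87 (adjusted p = 0.00144).

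At 30 min 6.51% of all genes were higher and 12.5% lower. The counts of higher and lower genes were 2 and 5 of the 27 polycomb partners, 0 and 3 of the 13 COMPASS partners, 3 and 3 of the 28 other acetyltransferases and partners and 0 and 3 of the 10 DNA methylation partners. They were 2 and 1 of the 4 other demethylases and 1 and 2 of the 25 partners of ISWI, INO80 and SWR1. In each of the lists of other methyltransferases, corepressors and SWI/SNF accessory subunits 1 gene was higher and 1 lower. Cbx6, a polycomb chromodomain protein, changed by -0.85 (adjusted p = 0.00466). Over all times, where 6.19% of all genes were higher and 3.24% lower, Ikaros-Zn4-/- cells were higher than WT cells for 4 genes of the lists, namely Trerf1 at 0.72 (adjusted p = 0.00791), Phc2 at 0.47 (adjusted p = 0.0266), Ash2l at 0.44 (adjusted p = 0.0262) and Rcor3 at 0.41 (adjusted p = 0.0244). They were lower for Supt20 at -0.53 (adjusted p = 0.007), Smyd4 at -0.47 (adjusted p = 0.0365), Ncoa3 at -0.39 (adjusted p = 0.017) and Nsd1 at -0.33 (adjusted p = 0.0384).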

How the data were processed

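RNA-seq of 10 libraries of mouse CD8+ T cells was used. The authors deposited 1 table of RPKM values per gene. Per the submitters' processing notes, TopHat2 2.0.12 and HTSeq 0.6.1 were used with the mm10 (GRCm38) build; how RPKM was computed from counts is not given in the sources used here. Columns were matched to libraries by their labels, with groups from genotype and time.

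The 12203 of 12637 genes whose mean reached 0.5 RPKM were tested on log2(RPKM + 1) with limma 3.58.1 in R 4.3.3 (moderated, with a mean-variance trend, two-sided), 1 mean per group with 4 residual degrees of freedom. Genotype over all times was fitted with time as an added term, with 6 residual degrees of freedom. Adjusted p-values are Benjamini-Hochberg over all genes tested, at a threshold of 0.05. The 120 min groups have 1 library each, assumed to vary like the other groups, and the genotypes were not tested there. Tests are on the deposited scale, where the median of all genes moved by -0.13 at 30 min and -0.32 at 120 min against 0 min, by -0.22 between them and by 0.01 between the genotypes; values relative to all genes subtract it. The scripts were tested on simulated data.

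Read depth was recovered from the steps of the values: 65.7% to 71.1% of values below 200 reads came out whole within 0.01, where 2% would by chance. The share is too low for the recovered reads to serve as exact counts, so voom on them is an alternative only. Positions and types are from GENCODE M21, and promoter letters from RefSeq. Of 110 members with a gene model, 10 share at least 10% of their exon bases with another gene, and the sources do not say that the kit keeps strand.

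The members and lists were chosen with earlier results of these data known. Named members are up to 12 called in each direction per comparison by size of change, plus 32 named whatever their values, and up to 2 called genes per partner list. The values of 2 genes that this rule names are not reported here. Kat6a, Kat6b, Kat7, Kdm1a, Kdm1b, Kdm5c, Setd1a and Smarcc1 were named after their values were seen. Alternatives were another pseudocount (0.1), no filter or one at 2 RPKM, median-ratio and quantile scaling, no trend, a replicate block, voom, the spread of the compared groups alone, and leaving out each library. No set test or correlation between comparisons was used.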

Additional observations from a re-analysis of the deposited data

Results flagged for a closer look

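3 members moved in opposite directions at 30 min in the 2 genotypes, every library of one above and every library of the other below its own values at 0 min. For Kdm4b, a demethylase of lysine 9 of histone H3, the difference between the responses of Ikaros-Zn4-/- and WT cells was 0.48 on the log2 scale (SE 0.16, unadjusted p = 0.0198, adjusted p = 0.876 by limma). Kdm4b had 18.8 and 20.7 RPKM unstimulated and 24.5 and 22.6 RPKM after 30 min in Ikaros-Zn4-/- cells, against 28.4 and 29.3 RPKM and 24.5 and 24.2 RPKM in WT cells. For Sirt2, a mostly cytoplasmic deacetylase, it was 0.63 (SE 0.23, unadjusted p = 0.029, adjusted p = 0.876 by limma). Sirt2 had 17.8 and 20.4 RPKM unstimulated and 22.4 and 28.8 RPKM after 30 min in Ikaros-Zn4-/- cells, against 19.6 and 21.4 RPKM and 15.9 and 18.7 RPKM in WT cells. For Sirt3, a mitochondrial deacetylase, it was 1.062 (SE 0.375, unadjusted p = 0.0252, adjusted p = 0.876 by limma). Sirt3 had 3.30 and 3.54 RPKM unstimulated and 3.67 and 6.63 RPKM after 30 min in Ikaros-Zn4-/- cells, against 5.75 and 5.02 RPKM and 3.85 and 2.52 RPKM in WT cells. None of these differences passed the adjusted threshold. The share of all genes with this pattern is not given here, and with so few libraries such a pattern can arise by chance. No group has 4 or more libraries, so single libraries were not tested for standing apart.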

How the results depend on the processing

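Counts of called members depend on which libraries enter. The shares of all genes called under each alternative are not given beside these counts. Leaving out 1 library gave 6 to 28 members at 30 min against 0 min (28 with all), 62 to 78 at 120 min against 0 min (76), 45 to 71 at 120 min against 30 min (67), 0 to 2 at 30 min within Ikaros-Zn4-/- cells (2), 0 to 10 within WT cells (9), 2 to 8 for Ikaros-Zn4-/- against WT over all times (9), and 0 for the genotypes at 0 or 30 min and for the differences of responses. Voom on recovered reads called 44 at 30 min against 0 min, 10 within Ikaros-Zn4-/- and 24 within WT cells, 14 over all times, and 3 and 5 between the genotypes at 0 and 30 min. With a replicate block the counts were 42 at 30 min, 84 at 120 min against 0 min, 72 between 30 and 120 min, 8 within Ikaros-Zn4-/- cells, 19 within WT cells, 15 over all times and 5 between the genotypes at 30 min. Same-numbered libraries deviated together only weakly, with correlations of 0.037 to 0.23, so the numbers are not a known pairing. The spread of the compared groups alone gave 0 within Ikaros-Zn4-/- and 4 within WT cells. Between the genotypes at 30 min, no filter, a filter at 2 RPKM and median-ratio scaling each gave 1 and quantile normalization 2. For Sirt1 the change between 30 and 120 min turned to -0.2053 (adjusted p = 0.3586) without Ikaros-Zn4-/- replicate 2 at 120 min, and its highest value with a library left out was 1.1912, without WT replicate 2 at 120 min. The cause was not tested in these cases. Depth limits genes such as Kdm6bos and Tet1, where a library holds few reads, and 120 min rests on 1 library per genotype.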

Other observations

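Members that rose at 120 min had longer gene models than those that fell, with a median of 10057 exon bases and a span of 81.5 kb against 5640 bases and 37.1 kb. Members not called had 5823 bases and 30.6 kb, and all protein-coding genes tested 4457 bases and 22.7 kb. Among all genes tested, those that rose had 5579 bases and 33.5 kb and those that fell 4137.5 bases and 19.5 kb. These are medians given as a description, with no test.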
